A study of Mus musculus with 2 samples.

Results

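The genes described here are 10 mouse genes of MHC class I and of class I antigen processing: B2m, H2-K1, H2-D1, H2-T23, Tap1, Tap2, Tapbp, Psmb8, Psmb9 and Psmb10. They were read from every probe set of the array whose gene symbols name one of them, which gave 31 of 45101 probe sets. Of these, 26 name 1 symbol. The other 5 name several similar genes, so their probes can bind more than 1 transcript, and they are named as shared wherever they are used. Of the 18193 genes that a probe set with 1 symbol names, 9 are members, and H2-T23 is read by shared probe sets alone.

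RNA was compared between a preparation of naive CD44- gamma/delta T cells and one of naive CD8+ alpha/beta T cells. The source of each was lymph node of C57BL/6 mice, with unwanted cells removed by negative selection, and neither carries a transgene or treatment that the labels name. Each group is 1 preparation on 1 Affymetrix MOE430 2.0 array, so neither a replicate nor a test stands behind the values, and every ratio compares these 2 preparations only. The labels give no age and no number of mice.

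MHC class I molecules show peptides from inside the cell to CD8+ T cells and to natural killer cells. The proteasome cuts proteins, and in cells of the immune system or after interferon its 3 catalytic subunits can be replaced by the immunosubunits encoded by Psmb8, Psmb9 and Psmb10. Tap1 and Tap2 form the transporter that carries the peptides into the endoplasmic reticulum. There tapasin, encoded by Tapbp, holds the transporter next to a new class I heavy chain (H2-K1, H2-D1 or H2-T23) paired with the light chain B2m. Nearly all nucleated cells make class I, and lymphocytes make it abundantly.

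The arrays' median signals were 243 for gamma/delta and 242 for alpha/beta cells, in scaled units. A signal of 243, the higher median, served as a floor, and lower signals were set to that value. The log2 ratio is gamma/delta over alpha/beta throughout, and higher and lower are said of gamma/delta cells relative to alpha/beta cells. A probe set under the floor on 1 array has only a bound ("at least"), and one under it on both has no ratio. A difference was called at 2-fold or more. Where a gene has several probe sets, its gene value is that of the probe set with 1 symbol and the highest mean log2 signal (for H2-T23, of the brighter shared one). As the arrays are single, the spread at hand is the one between probe sets that read one gene, and its pooled SD was 0.50 in log2 units over 3317 genes. It holds no variation between preparations, mice or arrays, so a ratio beyond it need not recur in another pair of preparations. Receptor and coreceptor markers differed as the labels say. Trgv4, a gamma receptor segment, gave 12522 in gamma/delta, against 170 in alpha/beta cells, and Cd8a gave 731 in gamma/delta, against 8852 in alpha/beta cells. Among 4 measured genes that all T cells make, Cd3g was called (2.31-fold), Cd3e and Zap70 were 1.74-fold and 1.68-fold higher, Cd3d had a log2 ratio of -0.03, and the summed signal was 82447 in gamma/delta, against 52324 in alpha/beta cells. Their median log2 ratio of 0.77 is larger than that of the members given below, and its part in the results was not tested. The ratio of 3′ to 5′ signal of actin, a measure of RNA integrity, was 6.99 with gamma/delta RNA, against 3.12 with alpha/beta RNA. The same ratio of Gapdh was 3.06 with gamma/delta RNA, against 3.24 with alpha/beta RNA. The part of RNA integrity in the results below was not tested.

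All 10 members had a ratio by their gene value. Psmb10 and Psmb9 passed the 2-fold call upward and 0 members passed it downward, while over all 11914 genes with a ratio 5.82% were higher and 3.93% lower. By probe set, 24 of the 31 had a ratio, 7 did not reach the floor on either array, and the same 2 probe sets were called, against 4.68% higher and 3.99% lower among all 26402 probe sets with a ratio. These are 2 calls among 10 genes, so the share rests on few genes. At 1.5-fold, a size chosen after the values were seen, 5 members were higher (Psmb10, Psmb9, H2-T23, Tap1 and Tapbp) and 0 lower, where 17% of all genes were higher and 13.2% lower. The members' median log2 ratio was 0.34, beside 0.03 over all genes with a ratio. Over the 24 probe sets it was 0.08, and 13 of them read H2-K1 or H2-D1.

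**Figure D1:**
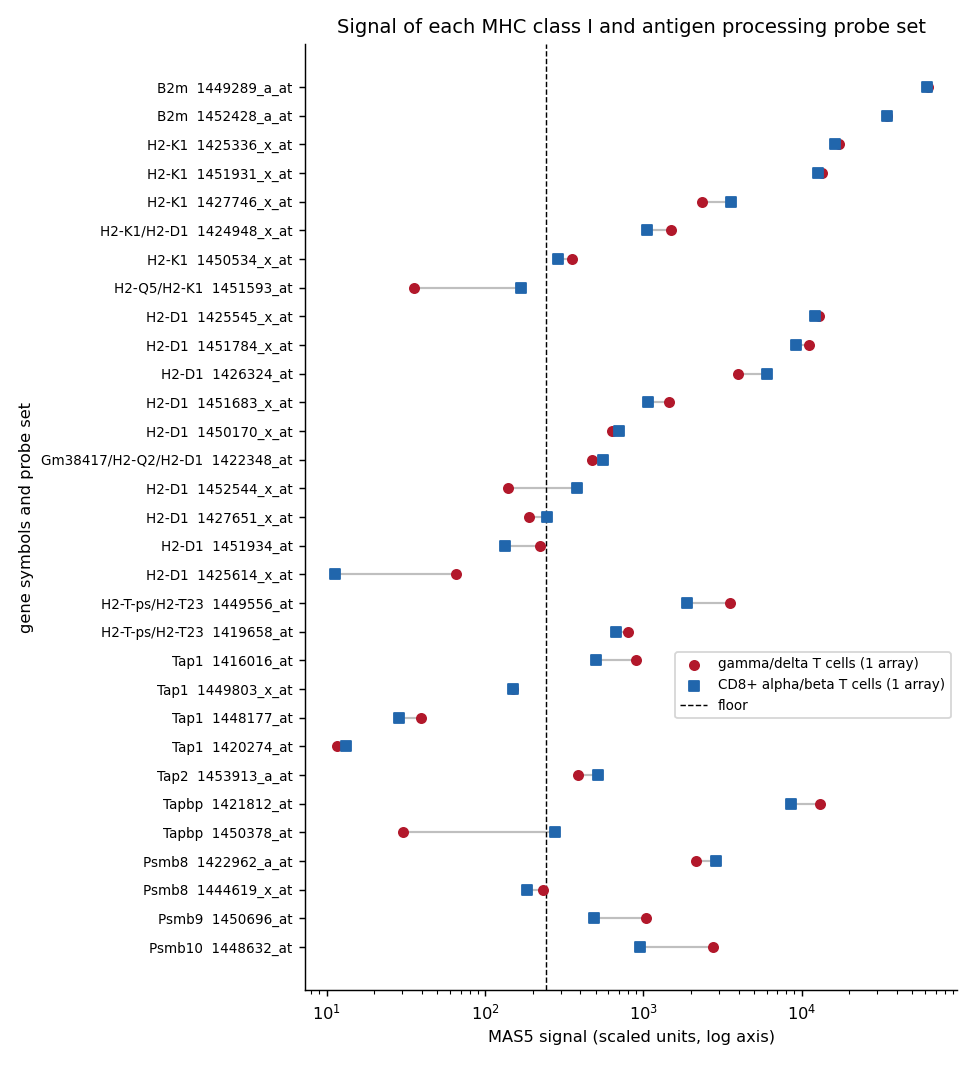
MAS5 signal (log axis) of the 31 member probe sets on the gamma/delta array (circles) and the alpha/beta array (squares), with 1 array for each and the floor of 243 as a dashed line. The circle lies to the right of the square for Psmb10 and Psmb9, while both symbols nearly coincide for the 2 probe sets of B2m.

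B2m, the light chain shared by class I molecules, had nearly equal signals in both preparations. Probe set 1449289_a_at gave 62530.1 in gamma/delta, against 62207 in alpha/beta cells. Probe set 1452428_a_at gave 34532 in gamma/delta, against 34345 in alpha/beta cells. Both log2 ratios were 0.01. As these are whole preparations, fewer cells with a transcript and less of it per cell cannot be told apart, here and below. These are bright signals, and over the 956 probe sets with at least 5000 on both arrays the median log2 ratio was -0.20, so bright probe sets lay on the whole slightly lower in gamma/delta cells. After quantile normalization and after an intensity-dependent loess, which remove that tilt, B2m had a log2 ratio of 0.30 each time. It did not reach 2-fold under any scaling tried. The deposited values do not say whether the scanner saturated, and the part of saturation in these values was not tested.

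**Figure D2:**
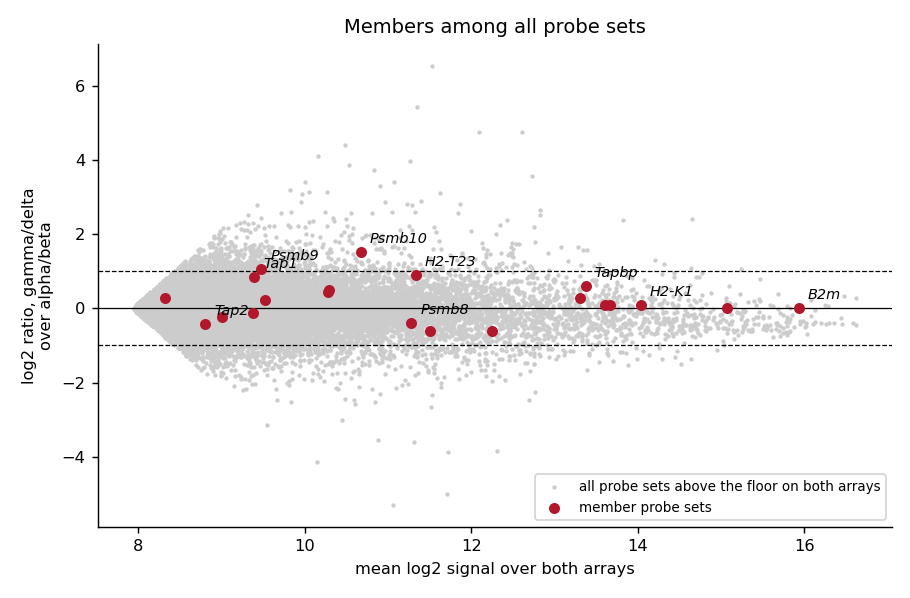
Log2 ratio of gamma/delta over alpha/beta against the mean log2 signal over both arrays, for all probe sets above the floor on both (grey) and the 21 member probe sets among them (red), with dashed lines at 2-fold. B2m and H2-K1 lie near 0 at the bright end, and Psmb10, Psmb9 and H2-T23 lie at the upper side of the cloud at 1.53, 1.07 and 0.89.

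H2-K1 and H2-D1 encode the classical heavy chains of C57BL/6 mice. The gene values were close to 1-fold for both. H2-K1 gave 17228 in gamma/delta, against 16281 in alpha/beta cells by 1425336_x_at, a log2 ratio of 0.08. H2-D1 gave 12797 in gamma/delta, against 12135 in alpha/beta cells by 1425545_x_at, also a log2 ratio of 0.08. With quantile normalization these became 0.24 and 0.19, and with loess 0.28 and 0.25.

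The probe sets of these heavy chains did not give one direction. For H2-K1, 1451931_x_at was close to the gene value (13341 in gamma/delta, 12638 in alpha/beta cells). Probe set 1427746_x_at gave 2343 in gamma/delta, against 3583 in alpha/beta cells, 1.53-fold lower. The dimmer 1450534_x_at gave 353 in gamma/delta, against 289.9 in alpha/beta cells. Of 5 probe sets with a ratio for H2-K1, 4 were above 0 and 1 below.

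For H2-D1, 4 of 9 probe sets with a ratio were above 0 and 5 below. The 1 H2-D1 probe set that names a single gene, lies above the floor and carries no suffix for shared probes, 1426324_at, gave 3939.55 in gamma/delta, against 6034 in alpha/beta cells, a log2 ratio of -0.62. In the other direction, 1451784_x_at gave 11099 in gamma/delta, against 9178 in alpha/beta cells (0.27) and 1451683_x_at gave 1451 in gamma/delta, against 1065 in alpha/beta cells (0.45). Probe set 1450170_x_at gave 637 in gamma/delta, against 699 in alpha/beta cells. The dimmest with a ratio were bounds. Probe set 1452544_x_at, with 139.5 in gamma/delta, against 381 in alpha/beta cells, was at least 1.57-fold lower, and 1427651_x_at, with 190.1 in gamma/delta, against 245 in alpha/beta cells, at least 1.01-fold lower. The SD of the log2 ratio was 0.41 over the 5 single-symbol probe sets of H2-D1 above the floor on both arrays, and 0.39 over the 4 of H2-K1. Both gene values are well inside that spread, and no direction can be given for either gene.

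Of the probe sets that name several symbols, the one shared by H2-K1 and H2-D1, 1424948_x_at, gave 1489 in gamma/delta, against 1052 in alpha/beta cells, a log2 ratio of 0.50. The one shared by Gm38417, H2-Q2 and H2-D1, 1422348_at, gave 474 in gamma/delta, against 552 in alpha/beta cells (-0.22). The one shared by H2-Q5 and H2-K1, 1451593_at, lay under the floor on both arrays, as did 1451934_at and 1425614_x_at of H2-D1. In all, 14 of the 31 member probe sets end in _x_at, the suffix for probes that also match other transcripts. The class I heavy chains are highly similar and vary between mouse strains, so a value for a single heavy chain is uncertain.

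**Figure D3:**
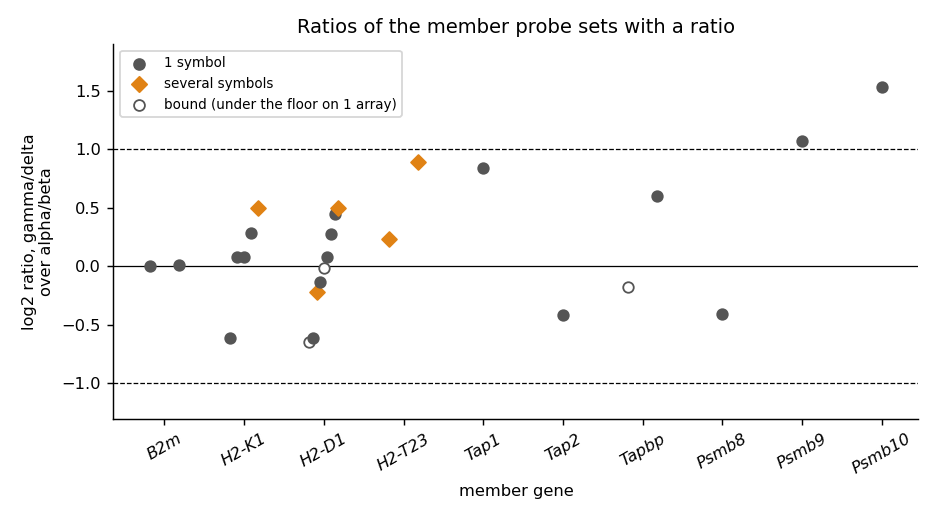
Log2 ratio of gamma/delta over alpha/beta for each member probe set with a ratio, by gene, with diamonds for probe sets of several symbols, open circles for bounds and dashed lines at 2-fold. The probe set shared by H2-K1 and H2-D1 is drawn under both genes. H2-D1 runs from -0.65 to 0.50, and Psmb9 and Psmb10 alone lie beyond a dashed line.

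The promoters of these 3 genes are known for a shared layout, with an enhancer that holds a kB element and an interferon-response element, followed by an X and a Y box. They are shown because these are the genes whose gene values hardly differed, and because the factors that bind such elements are described further on. The sequences are RefSeq's, build GRCm38.p6, and a window with the 250 bases before a start site was found for 9 of the 10 members, Tap2 being the exception. H2-K1 has 2 windows, and the stretches come from the first. In B2m, H2-K1 and H2-D1 the letters TGACG, the core of the X2 box, were followed after 20 bases by ATTGG, the inverted form of the Y box CCAAT (both in capitals).

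B2m, chr2:122147609-122147638, plus strand, ending 48 bases before the start site: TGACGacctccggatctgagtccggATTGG
H2-K1, chr17:34000359-34000388, minus strand, ending 11 bases before the start site: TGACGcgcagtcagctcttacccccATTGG
H2-D1, chr17:35262993-35263022, plus strand, ending 71 bases before the start site: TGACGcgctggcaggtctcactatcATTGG

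The capitals and their spacing are alike because the stretches were chosen on both. The shares of windows given here and below describe how common the letters are and are not a test of these genes. Of the 20 bases between the capitals, H2-K1 and H2-D1 share 13, H2-K1 and B2m 3, and H2-D1 and B2m 2. Searched on both strands, this spacing occurred in 0.0913% of 32851 windows of the same length, under 26 gene symbols. The other class I gene among them was H2-M3. TGACG alone occurred in 17.8% of windows and CCAAT alone in 33.8%.

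Farther upstream lay a kB element, searched as GGG, 2 bases of any kind, TT, 1 of any kind and CC, and an interferon regulatory factor core, searched as AANNGAAA, both on either strand and in capitals below. In B2m the capitals also cover the longer form with GAAA on each side of 2 bases of any kind, the core of an interferon-stimulated response element, which overlaps AANNGAAA.

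B2m, chr2:122147548-122147570, plus strand: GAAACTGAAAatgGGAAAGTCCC
H2-K1, chr17:34000430-34000458, minus strand: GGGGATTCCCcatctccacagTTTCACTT
H2-D1, chr17:35262923-35262951, plus strand: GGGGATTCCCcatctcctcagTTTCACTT

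Of the 11 bases between the capitals, which were not part of the search, H2-K1 and H2-D1 have 10 in common. A kB and an interferon regulatory factor core within 30 bases, the span set for the search, occurred in 0.164% of all windows. The kB letters alone occurred in 4.11% and AANNGAAA alone in 21.3%. A match of letters is a description of the window and not a measured binding site.

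H2-T23 encodes the heavy chain of Qa-1, a class Ib molecule that presents a leader peptide of other class I chains to the CD94/NKG2A receptor. Its brighter probe set, 1449556_at, gave 3508 in gamma/delta, against 1894 in alpha/beta cells, 1.85-fold higher. The second, 1419658_at, gave 795 in gamma/delta, against 676 in alpha/beta cells, 1.18-fold higher. Neither reached 2-fold, and the log2 ratio of the second, 0.23, lies inside the pooled SD of 0.50 between probe sets. The direction thus rests on the brighter probe set. Both also name H2-T-ps, so they may read both transcripts. The promoter window of H2-T23 held no TGACG and no kB letters. It held the longer interferon-response letters on the opposite strand, found in 2.98% of windows and among the members only in H2-T23 and B2m, 9 members having a window. They are in capitals below, in a stretch shown to set beside B2m.

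H2-T23, chr17:36032806-36032835, minus strand: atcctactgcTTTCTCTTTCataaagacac

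Of the 2 subunits of the peptide transporter, Tap1 was higher by more than the spread between probe sets and Tap2 was not resolved. Tap1 gave 897 in gamma/delta, against 502 in alpha/beta cells by 1416016_at, 1.79-fold higher (log2 ratio 0.84). Its other 3 probe sets lay under the floor on both arrays, so a single probe set carries this value. Tap2, read by 1 probe set, gave 386 in gamma/delta, against 515 in alpha/beta cells, 1.34-fold lower (-0.42). The Tap2 signals lie close to the floor, where MAS5 values carry little order, and the ratio is inside the SD between probe sets, so no direction can be given. The alpha/beta signal of Tap1 is no brighter than that of Tap2, so the size of the Tap1 ratio is uncertain as well.

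Tapbp, which encodes tapasin, gave 13040.1 in gamma/delta, against 8615 in alpha/beta cells by 1421812_at, 1.51-fold higher. Among the probe sets with at least 5000 on both arrays, 6.8% were higher by that much and 17.5% lower by that much, which sets this bright value against signals of its own size. The second probe set, 1450378_at, gave 30.3 in gamma/delta, against 275 in alpha/beta cells, at least 1.13-fold lower. With the signals of both averaged before the floor was applied, the log2 ratio of Tapbp was -1.29, the 30.3 entering as it stands. The median of the 2 ratios taken after the floor was 0.21. The direction thus rests on the brighter probe set.

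Of the 3 immunosubunits, Psmb10 and Psmb9 passed the 2-fold call and Psmb8 did not. Psmb10, which encodes MECL-1, gave 2764 in gamma/delta, against 958 in alpha/beta cells, 2.89-fold higher (log2 ratio 1.53). Psmb9, which encodes LMP2, gave 1031 in gamma/delta, against 491 in alpha/beta cells, 2.10-fold higher (1.07). That alpha/beta signal is no brighter than the one of Tap2, so the size of this ratio is uncertain. Psmb8, which encodes LMP7, gave 2154 in gamma/delta, against 2858 in alpha/beta cells by 1422962_a_at, 1.33-fold lower (-0.41). Its second probe set, 1444619_x_at, lay under the floor on both arrays. Psmb10 and Psmb9 have 1 probe set each, so neither ratio can be set against a second one, but both are larger than the pooled SD of 0.50 between probe sets. Over 8 alternative settings Psmb10 ran from 1.52 to 1.55 and Psmb9 from 1.04 to 1.07. Of these settings only the 3 scalings could change the values, as each gene has 1 unsuffixed probe set above every floor tried. The value of Psmb8 lies inside that SD and was -0.03 with its probe sets averaged, so no direction can be given for it.

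These 4 genes stand next to each other on chromosome 17, in the order Psmb9, Tap1, Psmb8, Tap2 among coding genes. Psmb9 and Tap1 are read in opposite directions from start sites with 225 bases between them, and both were higher in gamma/delta cells, 2.10-fold and 1.79-fold. The bases between the start sites are shown for that reason, on the strand of Tap1, from the Psmb9 end to the Tap1 end. Capitals mark every match to the letters searched above.

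Psmb9 to Tap1, chr17:34187331-34187555, plus strand: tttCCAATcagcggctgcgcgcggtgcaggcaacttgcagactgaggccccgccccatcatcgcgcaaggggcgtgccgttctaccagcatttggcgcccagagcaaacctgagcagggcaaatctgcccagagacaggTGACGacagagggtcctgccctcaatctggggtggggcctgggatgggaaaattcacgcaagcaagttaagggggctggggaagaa

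The stretch held CCAAT at bases 4 to 8 and TGACG ending at base 144, and no match to the kB or interferon letters. The windows of Psmb8 and Psmb10 held no match to any of the letters searched, and that of Tapbp held CCAAT only. No match says only that these letters are not in these windows.

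Each immunosubunit takes the place of a constitutive subunit with a matching position in the proteasome, Psmb8 that of Psmb5, Psmb9 that of Psmb6 and Psmb10 that of Psmb7. The constitutive subunits were level or lower. Psmb5 gave 588 in gamma/delta, against 1098 in alpha/beta cells, 1.87-fold lower. Psmb6 gave 1619 in gamma/delta, against 1949 in alpha/beta cells, 1.2-fold lower. Psmb7 gave 2732 in gamma/delta, against 2602 in alpha/beta cells, 1.05-fold higher.

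In all 3 pairs the log2 ratio of the immunosubunit lay above that of the constitutive subunit. The difference between the log2 ratios was 1.46 for Psmb10 over Psmb7, 1.34 for Psmb9 over Psmb6 and 0.49 for Psmb8 over Psmb5. The pooled spread between probe sets gives such a difference an SD of 0.71, which the first 2 differences exceed and the third does not. That SD holds no variation between preparations, so it is not the error of a difference between the cell types. For Psmb8 and Psmb5 both gene values were below 0, and that of Psmb5 was the lower.

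**Figure D4:**
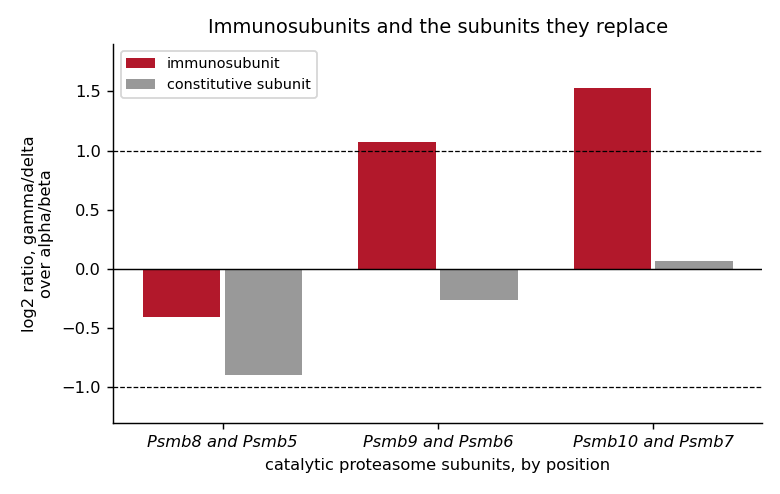
Log2 ratio of gamma/delta over alpha/beta for the 3 immunosubunits and, to the right of each, the constitutive subunit it replaces, from 1 array per group, with dashed lines at 2-fold. Psmb9 and Psmb10 lie above 1 at 1.07 and 1.53, and Psmb5 is the lowest at -0.90.

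The rest of the 20S core showed no common shift. Of 11 other core genes (Psma1 to Psma7 and Psmb1 to Psmb4) 0 were called in either direction, 5 were above 0 and 6 below, and the median log2 ratio was -0.02. Psmb3 had the highest value at 0.50, though -0.28 by its second probe set, and Psmb2 the lowest at -0.37. Proteasome activators and assembly factors lay mostly above 0. Of 8 counted, 7 lay above 0, of which 1 passed the 2-fold call, none was called lower, and the median was 0.62. Over all genes with a ratio, 6248 of 11914 lay above 0, 5.82% were called higher and 3.93% lower. With probe sets averaged the list's median was 0.25. Psme4 counts among the 7 at 0.50, but stood at -0.20 with its probe sets averaged.

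Psme1 and Psme2, whose products form the interferon-induced PA28 activator, were 1.60-fold and 1.47-fold higher. Psme1 gave 4658 in gamma/delta, against 2910.08 in alpha/beta cells. Psme2 gave 2318 in gamma/delta, against 1581 in alpha/beta cells by a probe set that it shares with Psme2b. The called gene was Psmg1, an assembly chaperone, with 540.4 in gamma/delta, against 249.97 in alpha/beta cells, 2.16-fold higher. With the floor at the 70th percentile its log2 ratio was at least 0.27. Psmf1, an inhibitor of the proteasome, and Psmg2, the partner of Psmg1, were 1.96-fold and 1.76-fold higher. With probe sets averaged Psmf1 had a log2 ratio of 0.23, and with the higher floor Psmg2 had at least 0.36. Pomp, the maturation factor, had a log2 ratio of 0.25, and Psme3 was the 1 below 0, at -0.19, while its second probe set stood at 0.95.

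Among genes of peptide loading and trimming, the chaperones of the loading complex were level. Calr gave 21178 in gamma/delta, against 22929 in alpha/beta cells, Canx 8811 in gamma/delta, against 8117 in alpha/beta cells, and Pdia3 3525 in gamma/delta, against 3271 in alpha/beta cells. Their log2 ratios were -0.11, 0.12 and 0.11. Erap1, the aminopeptidase that trims peptides in the endoplasmic reticulum, gave 1076 in gamma/delta, against 736 in alpha/beta cells, 1.46-fold higher. With its probe sets averaged before the floor was applied, its log2 ratio was 1.22, past the 2-fold call. That average includes a dim one at 331 in gamma/delta, against 89.1, under the floor, in alpha/beta cells.

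In this list of 10 measured genes the 2-fold call was passed upward by 2 and downward by 0, and the median was 0.11. Over all genes with a ratio 5.82% were higher and 3.93% lower, and the median was 0.03. Tapbpl, a tapasin-related peptide editor, gave 1061 in gamma/delta, against 439 in alpha/beta cells, 2.42-fold higher. Hspa5, the general chaperone BiP of the endoplasmic reticulum, gave 10543 in gamma/delta, against 3125 in alpha/beta cells, 3.37-fold higher, and its second probe set with a ratio was also higher, by a log2 ratio of 1.16. With its probe sets averaged Tapbpl had a value of 0.89. Sec61a1, of the translocation channel, stood at 0.74, but at -0.20 with its probe sets averaged and 0.01 without suffixed ones. Npepps, a cytosolic aminopeptidase, stood at -0.59, and at -0.23 with its probe sets averaged.

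Regulators of class I transcription included the largest ratio among these lists, that of Rfx5. The 2-fold call was passed upward by 4 of 15 measured and downward by 0. Their median was 0.41, which is the value of Stat2 and only a bound. Stat2 gave 322.7 in gamma/delta, against 103, under the floor, in alpha/beta cells. The median was 0.85 with no floor and 0.24 without suffixed probe sets. Rfx5, the DNA-binding subunit of the complex at the X box, gave 3376 in gamma/delta, against 864 in alpha/beta cells, 3.91-fold higher. Nlrc5, the class I transactivator that this complex recruits, gave 14296 in gamma/delta, against 5881 in alpha/beta cells, 2.43-fold higher. Each has 1 probe set. Over 8 alternative settings their log2 ratios ran from 1.96 to 1.99 for Rfx5 and from 1.27 to 1.43 for Nlrc5. Only the scalings among these settings could change either value, as both probe sets are unsuffixed and above every floor tried.

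The partners of Rfx5 in the complex did not reach 2-fold, with log2 ratios of 0.03 for Rfxap and 0.12 for Rfxank on dim signals. Of the Y box factors, Nfyb gave 3714 in gamma/delta, against 1774 in alpha/beta cells, 2.09-fold higher, but its second probe set had a log2 ratio of 0.18. Nfya was 1.80-fold higher and Nfyc had a log2 ratio of -0.11. Creb1 and Rela stood at -0.14 and -0.13.

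The interferon regulatory factors differed in direction. Irf1, an activator of class I genes, gave 2594 in gamma/delta, against 1316 in alpha/beta cells, 1.97-fold higher. Irf2, known as its antagonist at many promoters, gave 2071 in gamma/delta, against 3673 in alpha/beta cells, 1.77-fold lower. Irf7 gave 770.2 in gamma/delta cells and 230.1, under the floor, in alpha/beta cells, at least 3.17-fold higher. Under the floor at the 70th percentile Irf7 had a log2 ratio of at least 0.78. Irf9 was 1.42-fold higher.

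**Figure D5:**
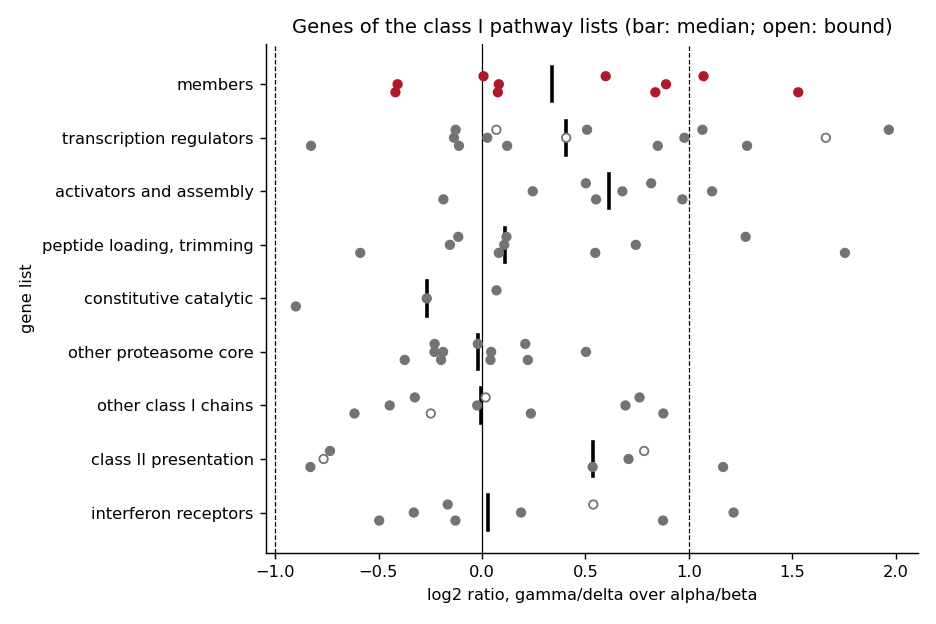
Log2 ratio of gamma/delta over alpha/beta for each gene with a ratio in the members and in 8 companion lists, with the median as a bar, bounds as open circles and dashed lines at 2-fold. Rfx5 lies farthest to the right at 1.97, followed by Hspa5 at 1.75, Psmb10 is the highest member at 1.53, and the 11 other proteasome core genes stay between -0.37 and 0.50.

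Other class I heavy chains lay on both sides of 0. Of 16 counted entries 6 did not reach the floor, and of the 10 with a ratio 0 were called, 5 were above 0 and 5 below. Probe sets of the Qa-2 family, each naming several H2-Q genes, were level or lower in gamma/delta cells. The one of H2-Q7 and H2-Q9 gave 10239 in gamma/delta, against 10405 in alpha/beta cells, that of H2-Q6 and H2-Q8 5758 in gamma/delta, against 7843 in alpha/beta cells, and that of H2-Q4, H2-Q6 and H2-Q8 3126 in gamma/delta, against 4792 in alpha/beta cells. Class Ib genes of the T and M regions and Cd1d1 were among those above 0. H2-T24 was 1.84-fold, H2-M3, which presents formylated peptides, 1.70-fold and Cd1d1, which presents lipids, 1.62-fold higher.

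H2-T10 and H2-T22 encode ligands for some gamma/delta receptors. They share a probe set with H2-T9 that gave 6057 in gamma/delta, against 5141 in alpha/beta cells, 1.18-fold higher. A dimmer probe set of the same 3 genes gave 352 in gamma/delta, against 17.2 in alpha/beta cells, a log2 ratio of at least 0.53. The average of both, taken before the floor was applied, stood at 2.30. Mr1, which presents vitamin metabolites, had a log2 ratio of -0.32.

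Class I is made by nearly every cell, so RNA of other cells would carry these transcripts too. Of 5 measured B cell markers 2 had a ratio and 0 were called, with a summed signal of 1406 in gamma/delta, against 1214 in alpha/beta cells. Cd79a, Pax5 and Cd74 were below the floor in both preparations. Ms4a1, which encodes CD20, gave 858 in gamma/delta, against 616 in alpha/beta cells, and 423 in gamma/delta, against 303 in alpha/beta cells by a second probe set. Of 7 myeloid and dendritic markers 5 did not reach the floor, among them Csf1r, Itgax and Lyz2, and the sums were 1229.5 in gamma/delta, against 942 in alpha/beta cells. Of 4 natural killer markers Gzma alone was called, with 1442 in gamma/delta, against 73.4 in alpha/beta cells, while Ncr1 and Tyrobp did not reach the floor, and the sums were 1891 in gamma/delta, against 692 in alpha/beta cells. Of 4 markers of stroma and endothelium 0 were called, with sums of 1899.6 in gamma/delta, against 1926 in alpha/beta cells. The part of such cells in the results was not tested.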

How the data were processed

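The deposited table gives a MAS5 signal intensity for each probe set on either array, and the submitters' processing notes name Affymetrix Expression Console 1.0 as the program. The 2% trimmed mean was 500.003 on each array in the deposited table, so both had been scaled to one target, and the values were used as deposited. No read counts or replicates lie behind them, so precision is limited by there being 1 array per group. MAS5 spreads weak signals widely.

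Symbols came from the platform annotation and were matched whole, so Tapbpl is not Tapbp (matching parts of symbols gave 33 probe sets). All 10 members matched RefSeq by gene identifier. The members and the 8 companion and 7 marker lists were chosen with earlier results of these data known. Named genes are all members, the genes that stand beside a member by role, and up to 5 per list with the largest ratio. Some further genes of the lists are named beside these. Genes without a single-symbol probe set were read from a shared one, counted once. Medians take bounds at their value. Python 3.11.15 with numpy 2.4.6, pandas 2.3.3 and statsmodels 0.14.6 was used, and the calls were run on simulated data. The simulated differences were larger than any among the members and lay on signals brighter than those of Psmb9. That run therefore gives no error rate for calls such as those of Psmb9 and Psmb10. Alternatives were 3 scalings, 3 floors, averaging probe sets and leaving out suffixed probe sets (_a_at, _s_at and _x_at). For probe sets, keeping those with 1 symbol was a further one.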

Additional observations from a re-analysis of the deposited data

How the results depend on the processing

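Psmb10 and Psmb9 were called under all 8 alternatives run for them, of which only the 3 scalings could change their values. The count of member genes at least 2-fold higher was 2 under each. Member probe sets at least 2-fold lower numbered 0 as reported, 2 once the floor was set at the 30th percentile (a probe set each of Tapbp and H2-D1) and 3 with no floor, the added one being shared by H2-Q5 and H2-K1. With no floor 3 were higher. With a gene's probe sets averaged before the floor was applied, 1 member gene was at least 2-fold lower, Tapbp. Leaving out the suffixes _x_at, _s_at and _a_at, the median log2 ratio was 0.60 over the member probe sets and 0.86 over the 6 member genes left. The genes lost were B2m, H2-K1, Tap2 and Psmb8, which include both members with a gene value below 0. H2-D1 had -0.62, since most of its probe sets carry those suffixes. The medians of the companion lists moved by less than the pooled SD between probe sets under every alternative run. That SD is not the spread of a list's median, so stability of the medians cannot be read from it. The median of the proteasome activators and assembly factors fell from 0.62 to 0.25 with probe sets averaged. That of the class I regulators rose from 0.41 to 0.85 with no floor and fell to 0.24 without suffixed probe sets. The median of the other proteasome core genes stayed between -0.03 and 0.07. Over all genes, 693 were higher and 468 lower, against 1320 and 1008 under the lower floor, 396 and 284 with a floor at the 70th percentile, 2917 and 2593 with no floor, and 459 and 322 with probe sets averaged. No paired analysis was possible because each group has 1 sample. Differences in genes near the floor, such as Tap2, cannot be resolved at this signal. The alpha/beta signals of Psmb9 and Tap1 are no brighter than that of Tap2.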

Other observations

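Class II genes, which B cells and myeloid cells make, were dim or under the floor in many cases. Of 13 listed, 6 did not reach it by the probe set used, among them H2-Ab1, H2-Eb1 and Cd74. Another probe set of H2-Ab1 gave 284 in gamma/delta, against 8.95 in alpha/beta cells, at least 1.17-fold higher. Of the 7 with a ratio 1 was called, where 5.82% of all genes were higher and 3.93% lower. H2-Ob, a subunit of an inhibitor of class II peptide loading, gave 2223 in gamma/delta, against 991 in alpha/beta cells, 2.24-fold higher, and its partner H2-Oa gave 564 in gamma/delta, against 345 in alpha/beta cells, a log2 ratio of 0.71 (at least 0.33 with the higher floor). H2-Ob is also the coding gene next to Tap2 on chromosome 17. A second probe set, shared by H2-Ob and Gm20506, lay under the floor on both arrays. Ciita gave 419 in gamma/delta, against 43.9, under the floor, in alpha/beta cells, a log2 ratio of at least 0.78. Its other probe sets lay under the floor on both arrays. Ctss, a lysosomal protease, stood at 6458 in gamma/delta, against 4457 in alpha/beta cells. H2-Aa, H2-DMb2 and Ifi30 lay below 0, at -0.73, -0.83 and at most -0.77. With the floor raised to the 70th percentile the values of H2-Aa and H2-DMb2 were bounds, at most -0.04 and -0.07.

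Interferon receptors and their kinases had no common direction, with a median log2 ratio of 0.03 over 8 genes. Ifnar2 was the 1 called gene, 2.32-fold higher in gamma/delta cells, and with its probe sets averaged it had a value of 0.32. Among all genes 5.82% were called higher and 3.93% lower. Jak1 had a log2 ratio of -0.50, and its other 2 probe sets were called lower, at -1.05 and -1.12. Tyk2 stood at 0.88, and at 0.20 with its probe sets averaged. Ifngr1 and Ifngr2, the receptor chains for interferon gamma, stood at -0.33 and -0.17. A second probe set of Ifngr2 gave 357 in gamma/delta, against 49.6 in alpha/beta cells, at least 1.47-fold higher. Averaging before the floor was applied turned Ifngr2 to 1.03, past the 2-fold call. Ifng gave 353 in gamma/delta cells and 5.28, under the floor, in alpha/beta cells, a log2 ratio of at least 0.54.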
